A study of Mus musculus with 32 samples.

Results

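The transcripts described here are those of 10 genes known as targets of p53, Cdkn1a, Mdm2, Trp53inp1, Ccng1, Pmaip1, Bbc3, Bax, Zmat3, Sesn1 and Phlda3, taken by gene symbol from the deposited tables. They are 10 of the 24890 gene symbols in the files, and all 10 had enough counts to be among the 15036 genes tested. Polyadenylated RNA had been sequenced from E14, a wild-type mouse embryonic stem cell line, held in all groups on gelatin with serum and LIF and with PD0325901 and CHIR99021, which inhibit MEK and GSK3. NrESC medium also held T0901317 at 10 µM, a compound that activates liver X receptors (LXR), nuclear receptors for oxysterols, and ESC cultures of matched passage went without it. Each of the 2 arms was sampled at passages 0, 2, 4, 6, 8, 10, 12 and 14, with 2 libraries in each of the 16 groups and 32 libraries in all. The labels mark the NrESC libraries of passage 0 as treated without giving the length of treatment, and do not tell whether both libraries of a group were separate cultures, so p-values measure the spread between these libraries, which may be technical.

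The transcription factor p53 is held at a low level in unstressed cells by the ubiquitin ligase encoded by its own target Mdm2, and accumulates after DNA damage and other stresses. It then binds pairs of short half-sites near genes that stop the cell cycle, trigger mitochondrial apoptosis, dampen p53 itself or limit growth signals. Mouse embryonic stem cells are known for abundant p53 protein and a short G1 phase, and p53 in these cells has also been linked to differentiation and to the repression of Nanog.

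Libraries held 25062538 to 50463483 counts in NrESC and 24989651 to 45818061 counts in ESC. Levels are given in CPM, counts relative to the TMM-scaled library total, and fold changes as log2 of NrESC over ESC. As a check on the labels, the LXR targets Abca1, Abcg1, Mylip and Srebf1 were higher in NrESC by 3.10, 4.18, 2.27 and 1.73 in log2 in the mean of 8 passages. Transcripts of 10 embryonic stem cell markers summed to 7313 to 8949 CPM in NrESC libraries and 7480 to 8656 CPM in ESC libraries, and none was at 0. Of 10 fibroblast markers 5 averaged under 1 CPM in each arm, Lum was at 0 in all libraries and Postn in all NrESC libraries. The fibroblast markers summed to 157.9 to 227.8 CPM in NrESC and 235.6 to 278.5 CPM in ESC, of which Vim alone averaged 151.3 CPM in NrESC and 209.9 CPM in ESC. Sums for primitive endoderm markers were 337.4 to 504.8 CPM in NrESC and 332.4 to 493.2 CPM in ESC, and for trophectoderm markers 213.5 to 268.8 CPM in NrESC and 168.1 to 217.5 CPM in ESC. The part of these cell types in the results below was not tested, and in bulk RNA fewer cells of a type and less RNA per cell cannot be told apart. The pair of NrESC libraries from passage 8 lay far from the rest on the first 2 principal components. Some results of the 10 and of p53 and its regulators are therefore also given without that passage. Without it all 10 kept the direction of their mean difference, with Phlda3 at -0.095 and Zmat3 at 0.07. For the further gene lists no mean without it is given, and for some genes the value at passage 8 is.

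The 10 transcripts did not move in one direction. In the mean of the 8 passages 3 were higher in NrESC (Bbc3, Cdkn1a and Zmat3) and 7 were lower (Pmaip1, Sesn1, Bax, Ccng1, Trp53inp1, Mdm2 and Phlda3) by edgeR's quasi-likelihood test at a Benjamini-Hochberg adjusted p of 0.05, where 78.9% of all genes were called, 39.1% higher and 39.8% lower. The median log2 fold change of the 10 was -0.19, beside a median of -0.00 over all genes tested, and the median size without sign was 0.21 beside 0.19. A stricter test summed the 2 libraries of each group and took the spread between passages as the error. By it 55.5% of genes were called, 28.3% higher and 27.2% lower. It treated the 8 passages as independent, but the labels do not tell whether passages of an arm were successive samples of the same culture. If so, its p-values do not measure the spread between independent cultures. In that case neither test can tell the treatment from another difference between the cultures of the arms. With passage as the unit 2 of the 10 rose (Bbc3 and Cdkn1a) and 6 fell, and Zmat3 and Phlda3 were no longer called. All 16 NrESC libraries lay above all 16 ESC libraries for Bbc3 and below all of them for Sesn1, a separation that 2.98% of genes tested showed. Passage by passage, both NrESC libraries lay on the same side of both ESC libraries at all 8 passages for 5 of the 10 (above for Bbc3 and Cdkn1a, below for Pmaip1, Bax and Sesn1), as for 20.4% of genes.

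**Figure D1:**
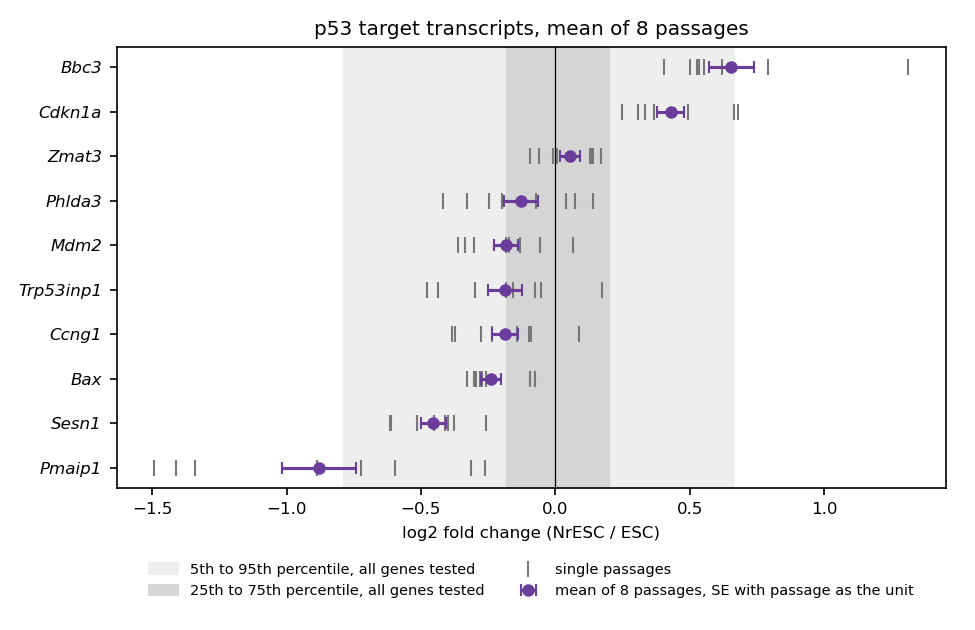
Log2 fold change, NrESC over ESC, of the 10 p53 target transcripts (horizontal axis), ordered from Bbc3 at 0.66 to Pmaip1 at -0.88. Circles are the mean of 8 passages with the standard error between passages, ticks are single passages, and grey bands span the 25th to 75th and the 5th to 95th percentiles of all 15036 genes tested. Pmaip1 lies below the outer band, Zmat3 and Phlda3 lie inside the inner one, and the ticks of Pmaip1 are spread widest.

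Stretches before the start sites are shown for 4 of the genes because these carry a match to the p53 consensus site and yet differed in direction: Cdkn1a was higher in NrESC, and Ccng1, Bax and Sesn1 were lower. Promoter windows of 300 bases, 250 before to 50 after an annotated start, came from RefSeq on build GRCm38.p6 and were matched by symbol, since the files' own build was mm9; 7 of the 10 genes had an entry, with 11 windows. The match sought was 2 half-sites of the p53 consensus, each of 10 bases, 0 to 13 bases apart, with at most 2 mismatches in all and the central C and G of each half-site kept, on both strands. It was present in 4 of the 11 windows, and in 4.09% of all 32851 windows. Cdkn1a and Sesn1 each also had a window at another annotated start, and these held 0 matches. Below, the 250 bases before each start are given 5′ to 3′ on the gene's strand, with the half-sites of the best match, that with the fewest mismatches and then the shortest spacer, in capitals. The best match of Cdkn1a began 73 bases before the first of its annotated starts, with 0 mismatches and 12 bases between half-sites. That of Ccng1 began 195 bases before its start with 1 mismatch and no spacer, and that of Bax 201 bases before with 2 mismatches and 1 base between. That of Sesn1 began 186 bases before the second of its annotated starts with 2 mismatches and 3 bases between. Each of the 4 windows held a second match that shared a half-site with the best. In Cdkn1a it began 51 bases before the start, with 1 mismatch and no spacer (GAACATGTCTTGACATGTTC), and in Ccng1, Bax and Sesn1 it had 2 mismatches and 5 bases between half-sites.
Cdkn1a, chr17:29090729-29090978, plus strand: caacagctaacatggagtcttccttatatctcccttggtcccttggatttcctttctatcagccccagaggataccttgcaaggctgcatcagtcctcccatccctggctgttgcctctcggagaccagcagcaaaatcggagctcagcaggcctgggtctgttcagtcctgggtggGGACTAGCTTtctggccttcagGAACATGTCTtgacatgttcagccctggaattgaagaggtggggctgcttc
Ccng1, chr11:40755287-40755536, minus strand: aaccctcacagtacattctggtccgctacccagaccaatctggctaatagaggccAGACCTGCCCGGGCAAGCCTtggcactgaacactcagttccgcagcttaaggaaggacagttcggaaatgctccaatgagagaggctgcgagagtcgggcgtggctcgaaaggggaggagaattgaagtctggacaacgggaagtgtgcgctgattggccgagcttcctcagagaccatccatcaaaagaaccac
Bax, chr7:45466899-45467148, minus strand: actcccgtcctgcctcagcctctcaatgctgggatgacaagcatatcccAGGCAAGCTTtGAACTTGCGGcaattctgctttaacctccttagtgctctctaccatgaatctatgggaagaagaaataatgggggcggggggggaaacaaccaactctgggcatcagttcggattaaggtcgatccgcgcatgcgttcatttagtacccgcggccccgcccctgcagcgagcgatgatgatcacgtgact
Sesn1, chr10:41887189-41887438, plus strand: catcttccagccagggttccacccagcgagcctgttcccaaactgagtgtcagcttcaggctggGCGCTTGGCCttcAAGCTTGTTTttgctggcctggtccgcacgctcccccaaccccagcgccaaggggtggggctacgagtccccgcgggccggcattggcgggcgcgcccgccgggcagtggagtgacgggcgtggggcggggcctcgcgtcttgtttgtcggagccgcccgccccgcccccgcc
The ATF4-type element TGATGNAA, present in 3.97% of all windows, and the LXR element of 2 AGGTCA repeats 4 bases apart, present in 0.0152%, were each found in 0 of the 11 windows on either strand. A match or its lack describes these letters in these windows only.

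**Figure D2:**
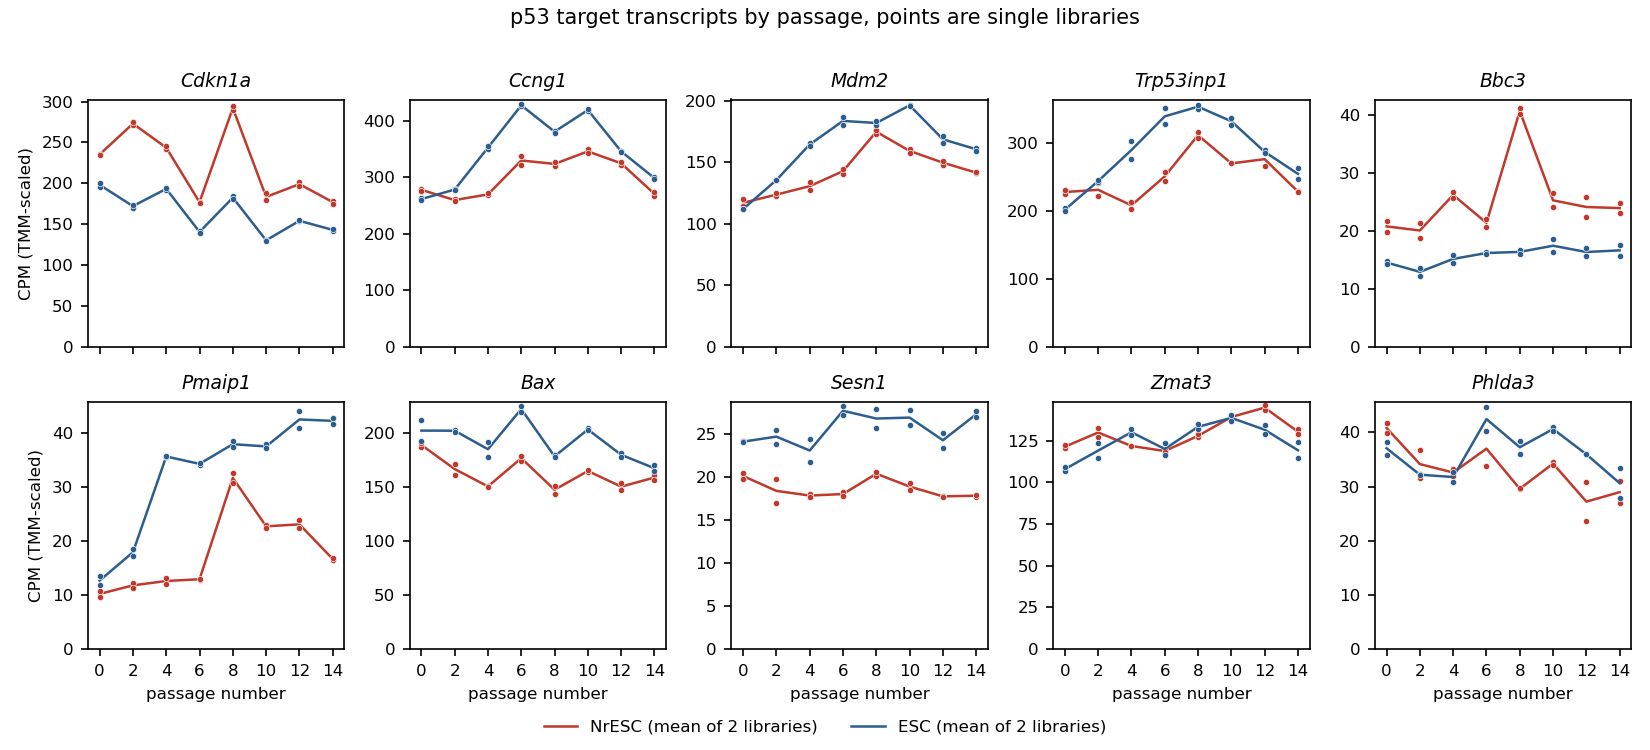
Level of each p53 target transcript in TMM-scaled CPM (vertical axes, from 0, each to its own scale) against passage number. Points are single libraries, lines join the means of 2 libraries, red is NrESC and blue is ESC. Cdkn1a and Bbc3 are higher in NrESC and Pmaip1, Bax and Sesn1 are lower in NrESC at all 8 passages, while Ccng1, Mdm2 and Trp53inp1 cross between passages 0 and 2 and then run lower in NrESC.

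Among the genes that act on the cell cycle, Cdkn1a and Ccng1 moved in opposite directions. Cdkn1a encodes p21, which inhibits cyclin-dependent kinases and is the classic effector of p53-dependent arrest. Its level across the 16 libraries ran from 175.3 through a median of 218.4 to 294.3 CPM in NrESC, and from 130 through 162.6 to 200.4 CPM in ESC. Both NrESC libraries were above both ESC libraries at every passage, although 7 of the 16 NrESC libraries lay within the range of all ESC libraries. The mean log2 fold change was 0.43 (SE 0.0094 between libraries, 0.0494 between passages), with adjusted p = 1.65e-34 by edgeR and 4.29e-05 with passage as the unit. NrESC means at passages 0 to 14 were 235.4, 273.1, 243.7, 177, 292.1, 183.5, 199.2 and 177.1 CPM, and ESC means were 198.2, 172.2, 193.3, 140.7, 182.6, 130.5, 154.3 and 143.2 CPM. The 3 lowest means of each arm thus fell on passages 6, 10 and 14, and the difference between arms ranged from 0.25 at passage 0 to 0.68 at passage 8.

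Ccng1 encodes cyclin G1, which recruits a phosphatase to Mdm2 and takes part in p53 feedback. Its level ran from 258.1 through a median of 299.7 to 349.1 CPM in NrESC, and from 260 through 348.3 to 428.7 CPM in ESC. The ranges overlapped, but within passages both NrESC libraries were below both ESC libraries at 7 passages and above them at passage 0. On average the log2 difference was -0.19 (SE 0.00849 between libraries, 0.0485 between passages; edgeR adjusted p = 2.91e-23, and 0.00616 with passage as the unit). Means stayed between 259.6 and 345.6 CPM in NrESC, whereas in ESC they were 261.3 CPM at passage 0, 426.9 CPM at passage 6 and 298.3 CPM at passage 14. The arms were farthest apart at passage 4, at -0.39, and passage 6, at -0.37.

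Like Ccng1, the feedback genes Mdm2 and Trp53inp1 had their lowest ESC mean at passage 0 and their highest at passages 6 to 10. Mdm2 encodes the ubiquitin ligase that degrades p53. It ranged from 114.4 through a median of 141.6 to 176.6 CPM in NrESC libraries and from 111.9 through 165.7 to 196.7 CPM in ESC libraries. NrESC means at passages 0 to 14 were 117.1, 123.8, 130.6, 142.8, 174.8, 159.2, 149.7 and 141.6 CPM, and ESC means were 112.1, 135.6, 164.4, 183.6, 181.9, 196.2, 168.6 and 160.6 CPM. Passage 0 had the lowest mean in both arms, and the highest fell on passage 8 in NrESC and on passage 10 in ESC, where a level of 183.6 CPM had been reached by passage 6. Over the 8 passages the difference averaged -0.18 (SE 0.0105 between libraries, 0.0451 between passages; edgeR adjusted p = 1.07e-19, and 0.00469 with passage as the unit), and 6 passages were called lower. It was 0.07 at passage 0 and -0.06 at passage 8, neither called by edgeR (adjusted p = 0.0968 at passage 0 and 0.0698 at passage 8). With DESeq2's size factors passage 8 was called lower, at -0.08 (adjusted p = 0.0116). DESeq2 (adjusted p = 0.0184) and limma on TPM (adjusted p = 0.00342) also called it lower. So did 14 of the 32 fits that left out 1 library, each time a library of another passage. These fits share the passage 8 libraries and are no separate evidence for the call. Over the 32 fits the difference ran from -0.08 to -0.05.

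Trp53inp1 encodes a nuclear body protein that promotes phosphorylation of p53 and also takes part in autophagy. Libraries ran from 203.3 through a median of 242.3 to 315.5 CPM in NrESC and from 199.5 through 286.6 to 355.6 CPM in ESC. The difference in the mean of passages was -0.19 (SE 0.0135 between libraries, 0.063 between passages; edgeR adjusted p = 2.39e-16, and 0.0236 with passage as the unit). NrESC was called higher at passage 0, by 0.17, and lower at 5 passages, with the largest difference of -0.48 at passage 4; the call at passage 14 was lost without 1 ESC library (adjusted p = 0.103). Both arms had their highest mean at passage 8, 310.9 CPM in NrESC and 352.8 CPM in ESC.

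The 3 apoptosis genes of the set split, with Bbc3 higher and Pmaip1 and Bax lower in NrESC. Bbc3 encodes PUMA, a BH3-only protein that neutralises the anti-apoptotic members of the Bcl2 family. It ran from 18.8 through a median of 23.6 to 41.2 CPM in NrESC libraries and from 12.3 through 16 to 18.6 CPM in ESC libraries, and the 2 arms did not overlap. The log2 difference averaged 0.66 (SE 0.0278 between libraries, 0.0842 between passages; edgeR adjusted p = 3.76e-24, and 8.17e-05 with passage as the unit), a 1.58-fold ratio, and all 8 passages were called higher. The NrESC libraries of passage 8 stood alone at 41.2 and 40.1 CPM, beside 18.8 to 26.7 CPM in the other 14, and the ESC libraries of passage 8 had 16.8 and 16.02 CPM. Without passage 8 the mean difference was 0.56, and the test of variation among passages was no longer passed (adjusted p = 0.135, against 1.38e-08 with it).

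Pmaip1 encodes NOXA, a BH3-only protein that binds Mcl1, and had the largest difference of the 10. Libraries ran from 9.72 through a median of 14.8 to 32.6 CPM in NrESC and from 11.8 through 36.4 to 44.0 CPM in ESC. In NrESC its means at passages 0 to 14 were 10.2, 11.8, 12.6, 12.9, 31.6, 22.7, 23.1 and 16.7 CPM, so the level stayed low up to passage 6, had its highest value at passage 8 and was lower again by passage 14. In ESC the means were 12.7, 17.9, 35.6, 34.2, 37.9, 37.5, 42.4 and 42.2 CPM, a 3.35-fold span, with the largest step between passages 2 and 4. Both NrESC libraries were below both ESC libraries at every passage, yet only 3 NrESC libraries were below the lowest ESC library, which came from passage 0. On average NrESC differed by -0.88 (SE 0.0222 between libraries, 0.136 between passages; edgeR adjusted p = 3.4e-32, and 0.000258 with passage as the unit). Single passages were spread from -1.49 at passage 4, -1.41 at passage 6 and -1.34 at passage 14 to -0.31 at passage 0 and -0.26 at passage 8 (SD 0.489 over 8 passages), all called. Without passage 8 the mean was -0.96.

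Bax encodes the pore-forming protein that opens the outer mitochondrial membrane. Its libraries ran from 143.8 through a median of 161.3 to 190.3 CPM in NrESC and from 164.6 through 192.1 to 225 CPM in ESC. Both NrESC libraries were below both ESC libraries at all 8 passages, and 10 of 16 were below every ESC library. The mean difference was -0.24 (SE 0.0126 between libraries, 0.0361 between passages; edgeR adjusted p = 8.2e-21, and 0.000222 with passage as the unit). It was nearly even from passage 2 to 12, between -0.33 and -0.26, and smaller at passage 0, at -0.09, and at passage 14, at -0.08, which was not called. At passage 0 the call was lost without any one of 3 of that passage's 4 libraries (adjusted p = 0.0608 to 0.593).

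Of the genes tied to metabolism and growth signals, Sesn1 was lower in NrESC throughout. Sesn1 encodes sestrin 1, which restrains the growth kinase mTORC1. It ran from 17.0 through a median of 18.2 to 20.7 CPM in NrESC libraries and from 21.8 through 25.7 to 28.3 CPM in ESC libraries, with no overlap. Its average difference was -0.45 (SE 0.0227 between libraries, 0.0457 between passages; edgeR adjusted p = 1.23e-21, and 1.98e-05 with passage as the unit), and all 8 passages were called lower, from -0.26 at passage 0 to -0.61 at passages 6 and 14. It also had the narrowest course over passages, a 1.15-fold span of group means in NrESC and 1.2-fold in ESC.

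Zmat3, which encodes an RNA-binding protein that regulates splicing and RNA stability, differed little. Its libraries ran from 118.2 through a median of 128 to 146.4 CPM in NrESC and from 106.8 through 126 to 140.1 CPM in ESC, almost the same range. The mean of the 8 differences was 0.05 (SE 0.0125 between libraries, 0.0373 between passages; edgeR adjusted p = 0.000301, but 0.243 with passage as the unit and 0.0558 by limma on TPM). NrESC was called higher at 4 passages and lower at passage 4, and the calls at passages 2, 4 and 14 were lost without single libraries of those passages (adjusted p up to 0.179). Phlda3, which encodes a pleckstrin-homology protein that competes with the kinase Akt for membrane lipids, ran from 23.6 through a median of 32.6 to 41.8 CPM in NrESC and from 27.9 through 35.9 to 44.6 CPM in ESC. Its mean difference was -0.13 (SE 0.0294 between libraries, 0.0622 between passages; edgeR adjusted p = 0.000176, but 0.0992 with passage as the unit). It was called at passages 6 to 12 and at none of the others, with the largest difference of -0.42 at passage 12; at passage 6, at -0.20, the call was lost with DESeq2 (adjusted p = 0.149), with limma on TPM (adjusted p = 0.095) and without passage 8 (adjusted p = 0.051). At passage 10 it was lost with DESeq2 (adjusted p = 0.0563), and at both passages without single libraries (adjusted p up to 0.602).

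The counts of calls changed with passage. At passage 0, where 17.6% of genes were called higher in NrESC and 14.8% lower, 5 of the 10 were called higher (Bbc3, Cdkn1a, Trp53inp1, Zmat3 and Ccng1) and 3 lower (Pmaip1, Sesn1 and Bax), with a median of 0.11. Ccng1 at 0.09 lost its call without 1 ESC library (adjusted p = 0.0663) or 1 NrESC library (adjusted p = 0.0582), and Pmaip1 at -0.31 lost it without 1 ESC library (adjusted p = 0.143). At passages 4 and 6 only Bbc3 and Cdkn1a were called higher and 7 were called lower at each, with medians of -0.32 and -0.35, where 27.4% and 23.6% of genes were called higher and 26.9% and 25.1% lower. At passage 2 the counts were 3 higher and 5 lower, beside 24.7% and 23.8% of genes, and at passage 8 they were 2 higher and 6 lower, beside 35.2% and 34.6%. At passage 10 they were 2 higher and 7 lower, beside 27.0% and 28.5%, and at passage 12 they were 3 higher and 6 lower, beside 23.1% and 24.0%. At passage 14 the counts were 3 higher and 5 lower with a median of -0.11, beside 19.7% of genes higher and 21.3% lower. The difference between arms varied among passages for all 10 transcripts by edgeR's F test, as it did for 69.4% of genes. The smallest adjusted p was that of Pmaip1 (9.12e-18) and the largest that of Sesn1 (0.00744), which was 0.0509 without 1 NrESC library of passage 0.

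**Figure D3:**
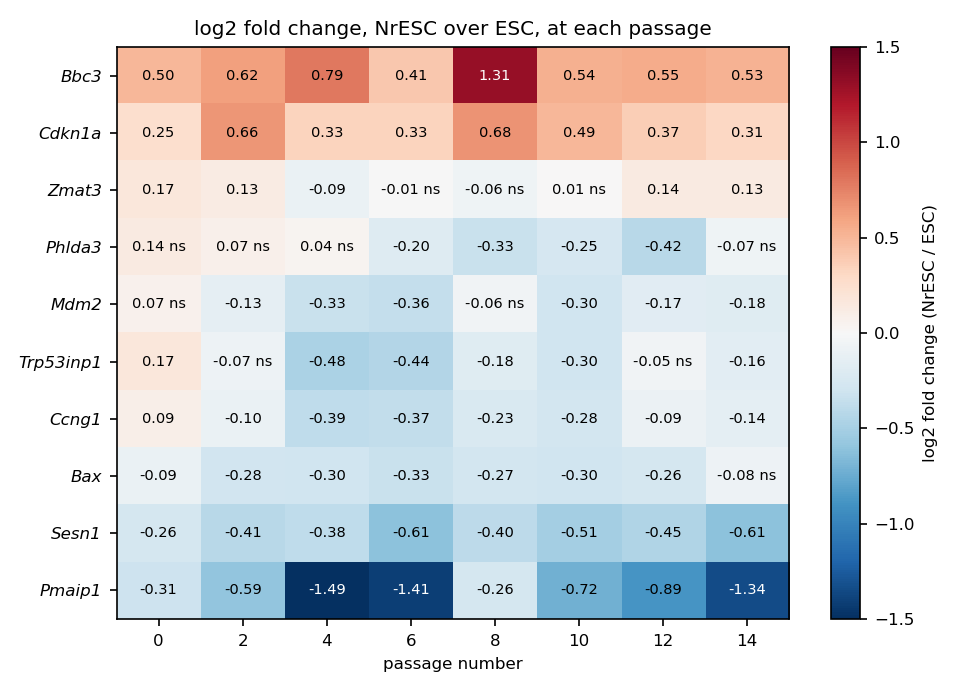
Log2 fold change, NrESC over ESC, of each transcript (rows) at each passage (columns), coloured from blue for lower in NrESC to red for higher in NrESC. The letters ns mark values not called at an adjusted p of 0.05 by edgeR. Bbc3 and Cdkn1a are red at all 8 passages and Bax, Sesn1 and Pmaip1 blue at all 8, and Mdm2, Trp53inp1 and Ccng1 are above 0 at passage 0, where Mdm2 is not called, and below 0 at the 7 later passages.

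Straight lines over passage number described these courses poorly. Fitted slopes in log2 per passage were called upward for 6 of the 10 in NrESC and 7 in ESC, where 28.6% and 27.2% of genes were called upward, and downward for 3 in NrESC and 2 in ESC, where 31.3% and 28.2% were called downward. Pmaip1 had the largest slope, 0.08 (SE 0.00376) in NrESC and 0.11 (SE 0.00333) in ESC, and Cdkn1a declined in both arms, with slopes of -0.03 (SE 0.0014) in NrESC and -0.03 (SE 0.0015) in ESC. With passage as the unit no slope of the 10 was called in either arm (adjusted p = 0.131 in NrESC and 0.107 in ESC for Pmaip1), where 2.40% and 0.479% of all genes were. The slopes differed between arms for 6 of the 10, all smaller or more negative in NrESC, where 14.2% of genes were called in that direction and 11.3% in the other; with passage as the unit none of the 10 was called, beside 0.0133% of genes. For Trp53inp1 that call was lost with DESeq2 (adjusted p = 0.108), with limma on TPM (adjusted p = 0.133), without passage 8 (adjusted p = 0.0653) and in 24 of the 32 fits that left out 1 library (adjusted p = 0.0502 to 0.186). It was also lost without 1 NrESC library of passage 2 for Sesn1 (adjusted p = 0.0573) and without 1 NrESC library of passage 14 for Ccng1 (adjusted p = 0.0563). In ESC only 1 slope of the 10 was called upward and 5 downward once passages 0 and 2 were left out, beside 2327 genes upward and 2469 downward. Mdm2, Trp53inp1 and Ccng1 had their highest ESC means at passages 6 to 10. Without passages 0 and 2 the slope differences of Mdm2, Trp53inp1, Ccng1 and Pmaip1 were called above 0, and those of Sesn1 and Phlda3 were not called.

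Compared per transcript length, in TPM, the order of the 10 was much the same in both arms. Bax was the most abundant, at 423.6 ± 31.3 TPM in NrESC and 507.8 ± 35.3 TPM in ESC (SD over 8 passage means), above the range of every other gene. Cdkn1a came next in NrESC, at 217.3 ± 42.5 TPM, with Ccng1 at 151.4 ± 18.6 TPM, whereas in ESC Ccng1 had 176.3 ± 32.7 TPM and Cdkn1a 162.6 ± 25.3 TPM. In each arm the ranges of these 2 genes over passages overlapped. Mdm2 and Trp53inp1 overlapped too, at 82.4 ± 12.1 and 79.3 ± 11.5 TPM in NrESC and 95.5 ± 17.5 and 92.2 ± 17.8 TPM in ESC. Phlda3 stood clear of its neighbours at 44 ± 5.1 TPM in NrESC and 48.6 ± 5.24 TPM in ESC. Below it, Zmat3 had 28.1 ± 2.61 TPM in NrESC and 27.5 ± 2.86 TPM in ESC. The last places changed between arms: Bbc3 was eighth in NrESC at 23.9 ± 6.32 TPM and lowest in ESC at 15 ± 1.63 TPM. Pmaip1 and Sesn1 had 12.1 ± 5.22 and 12 ± 0.709 TPM in NrESC and 22.5 ± 8.04 and 16 ± 1.12 TPM in ESC, and each neighbouring pair from Zmat3 down overlapped in range.

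Over the 16 group means on the log2 CPM scale, which share the passages and the TMM scaling, the 10 transcripts formed no single block. Mdm2, Trp53inp1, Ccng1 and Pmaip1 ran together, with Pearson r from 0.742 (Ccng1 and Pmaip1) to 0.930 (Mdm2 and Trp53inp1). The likeness was present inside each arm: Mdm2 and Trp53inp1 had r = 0.858 over the 8 NrESC means and 0.946 over the 8 ESC means, and Mdm2 and Pmaip1 0.948 in NrESC and 0.891 in ESC. Cdkn1a ran against these 4, with r from -0.392 to -0.570 over the 16 means, but not within both arms. Over the 8 NrESC means its r was -0.104 with Mdm2, 0.0809 with Trp53inp1, -0.365 with Ccng1 and 0.02 with Pmaip1, and over the 8 ESC means it was -0.635 with Mdm2, -0.447 with Trp53inp1, -0.53 with Ccng1 and -0.554 with Pmaip1. Bax was most like Phlda3 (r = 0.762) and least like Bbc3 (r = -0.783).

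Among all genes with a mean of at least 1 on the log2 CPM scale, the courses most like each member over the 16 group means were those of Plxdc2 for Mdm2 (r = 0.964), Mdm2 itself, Crim1 and Perp for Trp53inp1 (0.930, 0.921 and 0.920), Ddit4l for Ccng1 (0.948) and Sox21 and Col4a1 for Pmaip1 (0.959 each). For Cdkn1a it was Mical3 (0.960), for Bbc3 Tcta (0.959), for Bax Prmt1 (0.972) and for Sesn1 Syde2 (0.966). Zmat3 and Phlda3 had less close neighbours, Ipo8 (0.824) and Atg4b (0.876).

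p53 itself, encoded by Trp53, was lower at the transcript level in NrESC. Its libraries ran from 184.1 through a median of 316.6 to 370.1 CPM in NrESC and from 334.4 through 354.7 to 437.3 CPM in ESC, and 12 of 16 NrESC libraries were below every ESC library. The lowest 2 were those of passage 8, at 184 and 188 CPM, where the ESC libraries had 347 and 349 CPM. In the mean of passages it differed by -0.28 (SE 0.00861 between libraries, 0.0816 between passages; edgeR adjusted p = 5.15e-29, and 0.0132 with passage as the unit), and -0.19 without passage 8. At passage 0 the arms had 341.2 CPM in NrESC and 340.7 CPM in ESC, a difference of 0.00.

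The regulators Mdm4 and Ppm1d also stood apart at passage 8. Mdm4, an inhibitor that binds p53, averaged 329.3 ± 47.8 CPM in NrESC and 300.8 ± 24.3 CPM in ESC (SD over 8 passage means), with 433.5 CPM in NrESC at passage 8. Its mean difference of 0.12 was 0.08 without passage 8 and was not called with passage as the unit (adjusted p = 0.0588). Ppm1d, the phosphatase WIP1 that switches the response off, had 17.1 CPM in NrESC at passage 8, where the other NrESC means were 29.0 to 34.6 CPM and the ESC means 28.1 to 39.2 CPM, and its mean difference of -0.26 was -0.15 without passage 8. Atm, the kinase that signals DNA breaks, was lower at all 8 passages with no overlap between the arms, 87.9 ± 11.3 CPM in NrESC and 126.2 ± 12 CPM in ESC, a log2 difference of -0.53 (SE 0.0142 between libraries, 0.0568 between passages; edgeR adjusted p = 2.64e-31, and 2.87e-05 with passage as the unit). Of 17 tested genes of p53 and its regulators 6 were higher and 10 lower in NrESC, with a median of -0.12, beside 39.1% and 39.8% of all genes, and 4 and 9 with passage as the unit, beside 28.3% and 27.2%. The smallest p of this list was that of Sirt1, a deacetylase of p53, with a log2 difference of -0.57 (SE 0.0148 between libraries, 0.0941 between passages). At passage 8 alone the difference for Sirt1 was -1.30.

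**Figure D4:**
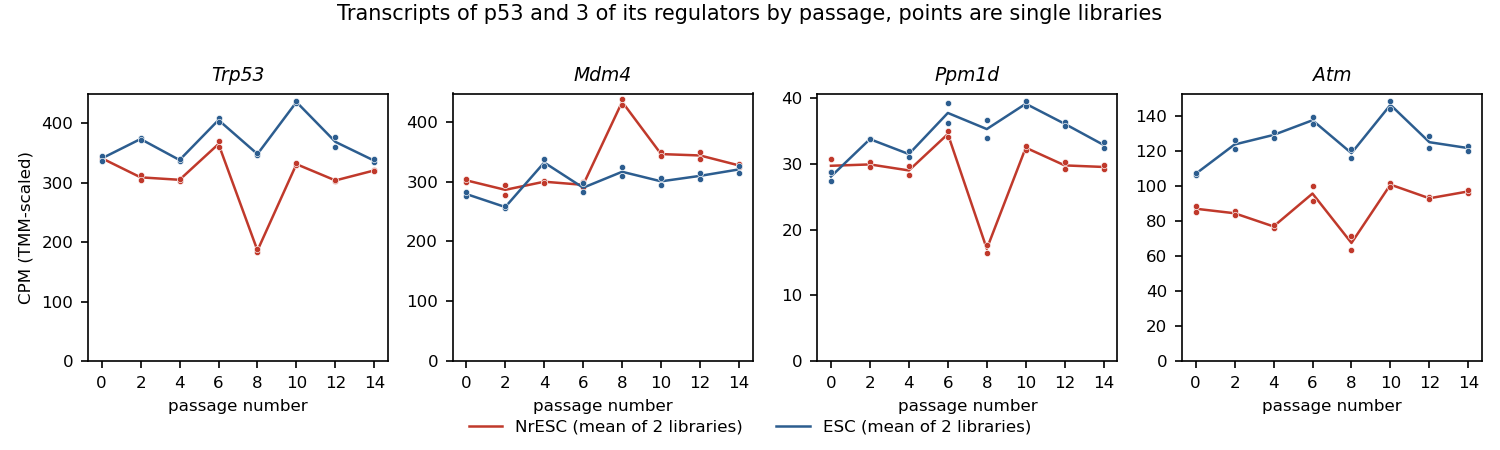
Level of Trp53, Mdm4, Ppm1d and Atm in TMM-scaled CPM (vertical axes, from 0, each to its own scale) against passage number. Points are single libraries, lines join means of 2 libraries, red is NrESC and blue is ESC. In NrESC at passage 8 Trp53 and Ppm1d drop to 186 and 17.1 CPM and Mdm4 reaches 433.5 CPM, and Atm is lower in NrESC at every passage.

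Of 40 other p53 targets, 17 were higher and 21 lower in NrESC in the mean of 8 passages, with a median of -0.06, where 39.1% of all genes were higher and 39.8% lower. With passage as the unit 12 were higher and 13 lower, where 28.3% and 27.2% of all genes were. The 3 with the smallest p, Ddit4, Gdf15 and Trp53i11, were all higher. The mTORC1 inhibitor gene Ddit4 had 120.4 ± 34.3 CPM in NrESC and 74.1 ± 29.5 CPM in ESC. Its log2 difference was 0.74 (SE 0.0171 between libraries, 0.147 between passages), and 1.497 at passage 8 alone. The secreted stress factor Gdf15 had 13.2 ± 5.46 CPM in NrESC and 4.98 ± 1.07 CPM in ESC. For Gdf15 the log2 difference was 1.35 (SE 0.0366 between libraries, 0.139 between passages), and 2.464 at passage 8 alone. Trp53i11 had 42.2 ± 15.1 CPM in NrESC and 24.8 ± 3.13 CPM in ESC. For Trp53i11 the log2 difference was 0.72 (SE 0.0207 between libraries, 0.106 between passages), and 1.572 at passage 8 alone. Each of these 3 genes had 1 sign at all 8 passages. So did 8 of the 40 upward and 5 downward, and 38.1% of all genes in either direction. At passage 0, 20 of the 40 were called higher and 4 lower, with a median of 0.20, beside 17.6% and 14.8% of all genes.

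Outside the 10, 5 of 15 tested genes of the Bcl2 family were higher and 7 lower in NrESC, with a median of -0.06, beside 39.1% and 39.8% of all genes, and 5 and 5 with passage as the unit, beside 28.3% and 27.2%. Mcl1, the anti-apoptotic partner of NOXA, averaged 275.2 ± 19.2 CPM in NrESC and 350.2 ± 19.1 CPM in ESC and was lower at all 8 passages. Its log2 difference was -0.35 (SE 0.00843 between libraries, 0.0352 between passages). The mitophagy receptor Bnip3 differed by -0.72 (SE 0.0157 between libraries, 0.258 between passages) and by -1.61 at passage 8. Bnip3l differed by -0.31 (SE 0.0116 between libraries, 0.0712 between passages) and by -0.50 at passage 8. Each was higher in NrESC at 1 passage. Of 22 cyclins, cyclin-dependent kinases, their inhibitors and proliferation markers outside the 10, 10 were higher and 8 lower in NrESC, with a median of 0.02, and 5 and 7 with passage as the unit, beside the same shares of all genes. Cyclin D1 (Ccnd1) fell by 0.50 (SE 0.0122 between libraries, 0.068 between passages), with a difference of -0.97 at passage 8. Cyclin D3 (Ccnd3) rose by 0.33 (SE 0.00884 between libraries) and cyclin E1 (Ccne1) fell by 0.22 (SE 0.00912 between libraries). Some p53 targets, Bbc3, Pmaip1 and Sesn2 among them, are also known to respond to the integrated stress response, in which the factor ATF4 is translated. All 20 genes of that list were higher in NrESC in the mean of 8 passages, with either unit, with a median of 0.76. The 3 with the smallest p were Psat1 (log2 0.74), Phgdh (log2 1.05) and Slc3a2 (log2 0.79). At passage 8 alone 19 of the 20 were called higher and 1 lower, beside 35.2% and 34.6% of all genes. Sesn2, which is also counted among the other p53 targets, differed by -0.14 at passage 8. The summed level of the 20 genes was 3809 to 4800 CPM in NrESC libraries and 2462 to 3292 CPM in ESC libraries. The part of the integrated stress response in the p53 target values was not tested.

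**Figure D5:**
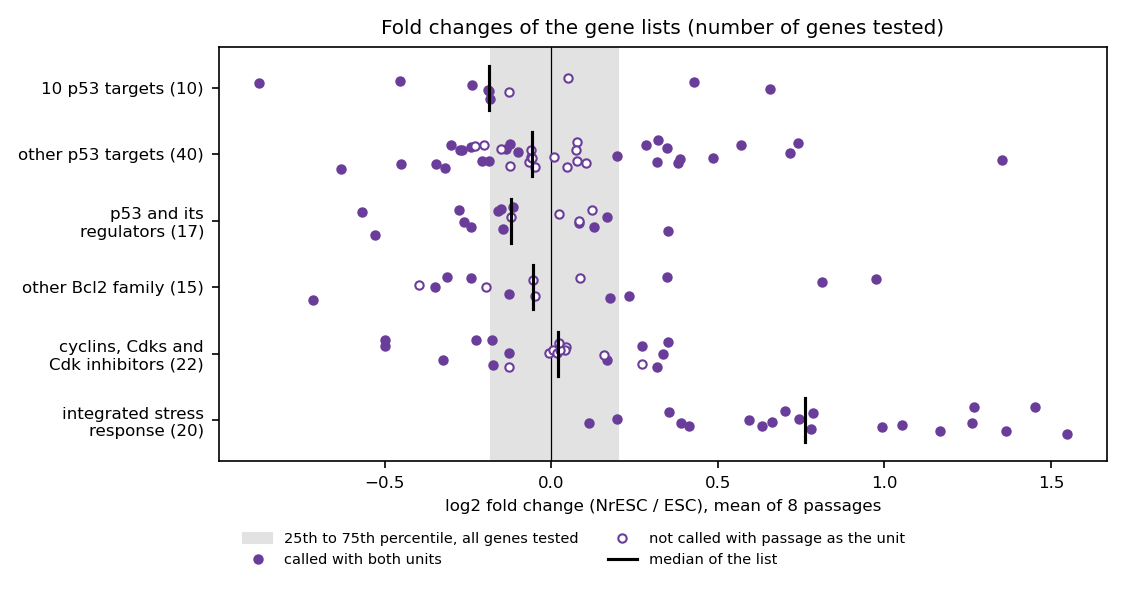
Log2 fold change, NrESC over ESC, mean of 8 passages (horizontal axis), of every tested gene in 6 lists (rows, number of genes in brackets). Filled circles were called with both units, open circles were not called with passage as the unit, black bars are list medians and the grey band spans the 25th to 75th percentiles of all genes tested. The p53 lists straddle 0, with medians of -0.19 and -0.06, and the integrated stress response lies wholly above 0 with a median of 0.76.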

How the data were processed

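Expected counts by RSEM, one row per gene symbol and not normalized, were deposited by the authors, per the file headers. The other deposited table holds TPM, which the authors had adjusted for length so that libraries share one total. The submitters' processing notes name RSEM, edgeR, DESeq2, STAR, HTSeq 0.12.4 and Cufflinks 2.2.1 on build mm9, without roles; annotation and strand setting are not given in the sources used here. RSEM divides reads shared between similar genes. Of the expected counts 0.837% were fractional, and all were rounded.

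Genes were filtered with filterByExpr on the 16 groups, scaled by TMM and fitted with a mean per group in edgeR 4.0.16 (quasi-likelihood, 16 residual degrees of freedom, R 4.3.3). Contrasts were the mean of 8 passages, each passage, variation among passages and linear slopes, each adjusted by Benjamini-Hochberg over 15036 genes at 0.05. SEs from this fit hold only the spread between libraries (median SD 0.0514 in log2), which is smaller than that between passages (median 0.188 in NrESC and 0.160 in ESC). A second fit therefore took passage as the unit, treating passages as independent, with 7 residual degrees of freedom for the mean and 12 for slopes. Alternatives were DESeq2 1.42.0, its size factors in edgeR, no filter, limma 3.58.1 on log2(TPM + 1) for genes above 1 TPM in at least 2 libraries, a replicate block, leaving out passage 8, passages 0 and 2, or single libraries. The main edgeR fit, DESeq2, limma and the fit with passage as the unit were also run on simulated counts. There limma was given counts scaled to a common total and not TPM. The other alternatives were not run on simulated counts. No 2 libraries held identical values.

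The members, lists and tests were chosen with earlier results of these data known. Named genes are the 10 members, Trp53, Mdm4, Ppm1d and Atm, the 3 smallest p-values of each further list, up to 3 most similar courses per member, and markers. Matches in promoters were searched by script in RefSeq windows of GRCm38.p6, which were used for nothing else.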

Additional observations from a re-analysis of the deposited data

Results flagged for a closer look

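For all 10 transcripts the difference between NrESC and ESC was not the same at every passage by edgeR's quasi-likelihood F test over 7 contrasts, as for 69.4% of genes tested. The adjusted p was 9.12e-18 for Pmaip1, 2.24e-15 for Ccng1, 8.61e-15 for Cdkn1a, 5.22e-13 for Trp53inp1, 2.51e-11 for Mdm2, 1.38e-08 for Bbc3, 8.82e-06 for Zmat3, 2.81e-05 for Bax, 0.000204 for Phlda3 and 0.00744 for Sesn1. Bbc3 did not pass without passage 8 (adjusted p = 0.135), and Sesn1 did not pass without 1 NrESC library of passage 0 (adjusted p = 0.0509). The log2 differences ran over passages from -1.49 to -0.26 for Pmaip1, from 0.41 to 1.31 for Bbc3 and from -0.39 to 0.09 for Ccng1.

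The slope over passage number in NrESC minus that in ESC was called below 0 for 6 of the 10, where 14.2% of all genes were. It was -0.0308 log2 per passage for Pmaip1, -0.0293 for Phlda3, -0.0171 for Sesn1, -0.00908 for Mdm2, -0.00847 for Trp53inp1 and -0.00647 for Ccng1. For Trp53inp1 the call was lost in 24 of 32 fits without 1 library, for Sesn1 and Ccng1 in 1 each. None of these was called with passage as the unit (adjusted p = 1 for each). Without passages 0 and 2, 4 of them (Mdm2, Trp53inp1, Ccng1 and Pmaip1) were called above 0 by edgeR. Sesn1 and Phlda3 then stayed below 0 but were not called by edgeR (adjusted p = 0.321 and 0.282). The cause was not tested.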

How the results depend on the processing

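Of 4160 results of the 10 transcripts with 1 library left out, 4085 kept their side of the threshold and, where called, their direction. So did 780 of 840 under the other alternatives. Both totals pool unlike cases. For results at a single passage, most fits without 1 library kept all libraries of that passage, so little could change. Among the 10 transcripts and the regulators, passage as the unit kept 17 results and lost the call of 27. Leaving out passages 0 and 2 kept 13 slope results, reversed 9, lost the call of 6 and gained 2. A change of sign was not counted where neither fit gave a call, as for Phlda3 at passage 14 (-0.19 to 0.06 without single libraries). In the mean of 8 passages 3 of the 10 stayed called higher and 7 lower, with 2 exceptions. These were passage as the unit (2 and 6) and limma on log2(TPM + 1) (2 and 7). Zmat3 lost its call in the mean with both of these and Phlda3 with passage as the unit. Single-passage calls changed too: Mdm2 at passage 8 was called lower in 3 alternatives and Zmat3 in 2, Bax at passage 0 was not called by limma, and without the low-count filter Phlda3 was called at passage 0 and Trp53inp1 at passage 2. The counts of calls that moved by over 1.5 times were those of slopes. No cause was tested. Without passages 0 and 2 the slope counts in NrESC were 2822 genes up and 2640 down. In ESC they were 2327 genes up, 2469 down, and 1 of the 10 targets up and 5 down. The slope differences were called for 6 of the 10 upward and 0 downward. Over all genes the counts for that difference stayed within 1.5 times of those with all passages, 1693 upward and 2130 downward. Slopes in ESC then reversed and were called for Mdm2 (-0.006416), Trp53inp1 (-0.02536) and Ccng1 (-0.02862). Those of Zmat3 in ESC (-0.002895) and Bbc3 in NrESC (-0.01204) changed sign and were no longer called. Slope differences reversed for Mdm2 (0.01642), Trp53inp1 (0.0385), Ccng1 (0.02971) and Pmaip1 (0.02745). With passage as the unit the slope counts were 112 genes up and 249 down in NrESC, 33 up and 39 down in ESC, and 0 up and 2 down for the difference, with 0 of the 10 targets in each direction of all 3. limma on log2(TPM + 1) called 2871 downward slopes in NrESC and 2388 in ESC.

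Replicate numbers did not pair the samples: deviations of same-numbered libraries of the 2 arms correlated by -0.019 to 0.0616, and 0 of 8 passages passed 0.1. The replicate block gave 5865 genes higher and 5977 lower in the mean of 8 passages, beside 5880 and 5988 without it. It changed the call of none of 170 results of the 10 transcripts and 4 regulators. SEs between libraries in the mean were 0.0222 to 0.0294 for the 4 transcripts lowest in CPM (Pmaip1, Bbc3, Sesn1 and Phlda3) and 0.00849 to 0.0135 for the other 6.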
